A study of Mus musculus with 6 samples.

Results

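The mitochondrial genome of the mouse carries 37 genes, and all 37 were found among the 52550 genes of the deposited table as the entries whose symbol starts with mt-. They are 13 protein-coding genes, 2 ribosomal RNA genes (rRNA) and 22 transfer RNA genes (tRNA). RNA was measured in the left ventricle of 12-month-old C57BL/6J mice. There were 3 libraries labelled PKI, described as overexpressing PGC1alpha, and 3 libraries labelled WT, described as wild-type. No source used here gives the construct or promoter behind the overexpression. The labels do not say that each library came from a separate mouse, so the p-values below measure the spread between libraries, which may be technical. PGC1alpha, encoded by Ppargc1a, is a transcriptional coactivator known for its role in mitochondrial biogenesis, and the question the design poses is how the ventricular transcriptome differs when it is overexpressed.

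The mitochondrial genome is a small circular DNA held in many copies in each heart muscle cell. Both of its strands are transcribed into long precursor RNAs that span many genes. The tRNAs lie between most of the other genes, and cutting them out of the precursor releases the mRNAs and rRNAs. The mRNAs encode core subunits of respiratory complexes I, III and IV and of ATP synthase (complex V), which pump protons across the inner membrane and use the gradient to make ATP. The other subunits of these complexes, and the proteins that transcribe and process mitochondrial RNA, are encoded in the nucleus.

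Levels are FPKM, fragments per kilobase of transcript scaled to the library's mapped fragments, so they are relative to the library's total and to gene length. Differences are PKI minus WT on the scale of log2(FPKM + 1), tested with limma over the 9907 genes whose mean reached 1 FPKM, and a gene is called at a Benjamini-Hochberg adjusted p under 0.05. Over all of those genes, 39.4% were called, 36.4% higher and 2.96% lower in the libraries labelled PKI, with a median log2 difference of 0.21. The members take a large part of each library's total, so a smaller share for them raises the FPKM of other genes. These background shares are therefore not independent of the members. Nuclear genes without the copies described below summed to 155361 to 158240 FPKM under the PKI label and 135247 to 135498 under the WT label. Positions are from GENCODE M21 (GRCm38), found by gene identifier.

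Ppargc1a, the gene named as overexpressed, was checked first. It had 11.6, 11.8 and 11.4 FPKM in the libraries labelled PKI, against 14.2, 12.8 and 12.4 FPKM in those labelled WT. All 3 values under the PKI label lay below all 3 under the WT label, the opposite of the stated overexpression (log2 difference −0.16, SE 0.07, adjusted p = 0.0967 by limma; two-sided exact permutation p = 0.1, the smallest that the 20 arrangements allow). The groups are therefore named by their labels throughout. Summed FPKM ran between 708058 and 726064 in libraries labelled PKI and between 747154 and 767757 in those labelled WT. Many low values of the table fell near multiples of a unit that makes 1 fragment on a gene of 1 kilobase worth 0.04595 to 0.05555 FPKM, depending on the library, but only 28.8% to 33.0% of them lay within 0.05 of a whole number, so the fragment numbers given below are estimates. Some libraries stood apart for single members. WT replicates 2 and 3 were low for mt-Atp6, and replicate 2 of both groups was low for several tRNAs.

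Transcripts of the mitochondrial genome held a smaller share of the measured RNA in the libraries labelled PKI. The 37 genes held 55.5% ± 0.146 of all FPKM in libraries labelled PKI and 57.8% ± 0.830 in those labelled WT (SD, n = 3 each). Weighted by GENCODE M21 gene length, which estimates their share of mapped fragments, they held 37.1% to 37.9% in libraries labelled PKI and 41.6% to 42.7% in those labelled WT. Neither pair of ranges overlapped. The estimate rests on lengths that may differ from those behind the FPKM. It leaves out fragments assigned to the near-identical nuclear entries described below. In bulk tissue, fewer cells of a type and less RNA per cell cannot be told apart. Of the 36 members that passed the level filter, 15 fell and 0 rose in the libraries labelled PKI. Over all tested genes, 2.96% were called lower and 36.4% higher. The 15 members were 11 protein-coding genes and 4 tRNAs, and 17 members had every PKI value below every WT value. Over all tested genes, 4.53% lay below without overlap and 51.3% lay above. The calls depended on the variance model: with no level filter 0 protein-coding genes and 2 tRNAs were called lower, and with no variance trend 4 and 2. Over all tested genes, those fits called 231 of 24705 and 271 of 9907 lower. Without PKI replicate 3, WT replicate 2 or WT replicate 3, 7 protein-coding genes were called lower. Over all tested genes, these 3 fits called 171 of 9829, 227 of 9980 and 165 of 9978 lower.

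**Figure D1:**
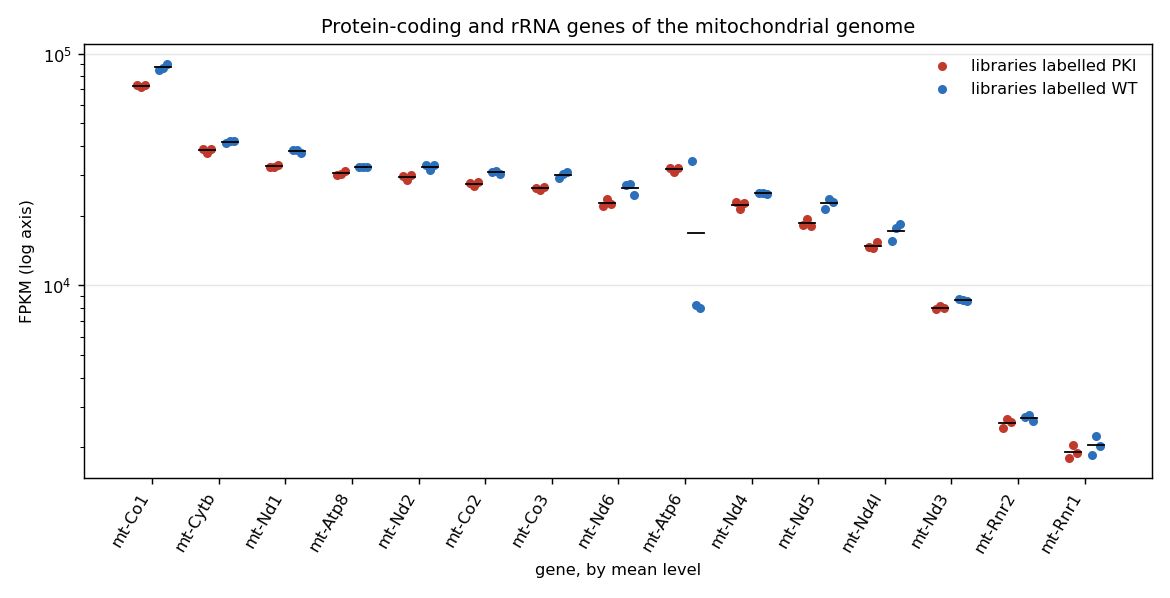
FPKM (log axis) of the 13 protein-coding and 2 rRNA genes in each library, red for libraries labelled PKI and blue for libraries labelled WT, with genes ordered by mean level and a bar at each group's mean. For 12 of the 13 protein-coding genes every red point lies below every blue point, mt-Atp6 has 2 WT points far below the other 4, and both rRNAs overlap.

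Complex I, NADH dehydrogenase, passes electrons from NADH to ubiquinone, and its 7 subunits of the mitochondrial genome all fell. mt-Nd1 (chrM:2751-3707), in the membrane arm next to the ubiquinone site, had 32493, 32459 and 33150.5 FPKM in the libraries labelled PKI, against 38460.4, 38355 and 37270.4 FPKM in those labelled WT. It fell by 14% of the WT mean, with the PKI values close together and all below the WT values (log2 difference −0.22, SE 0.03, adjusted p = 0.0026 by limma). mt-Nd5 (chrM:11742-13565), one of the subunits that resemble proton antiporters, had 18215, 19300.0 and 18081 FPKM in the libraries labelled PKI, against 21448, 23632 and 22873 FPKM in those labelled WT. It fell by 18.2% of the WT mean, the largest fall among the protein-coding genes (log2 difference −0.29, SE 0.05, adjusted p = 0.00483 by limma). mt-Nd2 (chrM:3914-4951), of the same antiporter-like kind, had 29691, 28351 and 29858 FPKM in the libraries labelled PKI, against 33212, 31452 and 33023 FPKM in those labelled WT. It fell by 10%, again without overlap (log2 difference −0.15, SE 0.04, adjusted p = 0.0182 by limma).

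mt-Nd4 (chrM:10167-11544), the remaining antiporter-like subunit, had 22807, 21426 and 22659 FPKM in the libraries labelled PKI, against 25059, 25051 and 24788 FPKM in those labelled WT. mt-Nd4l (chrM:9877-10173), a short membrane subunit whose gene shares its last 7 bases with the start of mt-Nd4, had 14631, 14509.7 and 15418 FPKM in the libraries labelled PKI, against 15563, 17681 and 18326 FPKM in those labelled WT. Both fell, mt-Nd4 more evenly across libraries (log2 difference −0.16, adjusted p = 0.0121 by limma) than mt-Nd4l, where the highest PKI value and the lowest WT value were close (log2 difference −0.21, adjusted p = 0.0386 by limma). mt-Nd3 (chrM:9459-9806), a small subunit and the lowest of the protein-coding genes, had 7881, 8146 and 8022 FPKM in the libraries labelled PKI, against 8769.6, 8633 and 8562 FPKM in those labelled WT. Its fall was the smallest in complex I, although no values overlapped (log2 difference −0.11, SE 0.03, adjusted p = 0.0354 by limma). mt-Nd6 (chrM:13552-14070), encoded on the opposite strand from the other 12 protein-coding genes, had 21932, 23517 and 22533 FPKM in the libraries labelled PKI, against 27225, 27277 and 24422 FPKM in those labelled WT. It fell by 13.9% (log2 difference −0.21, SE 0.05, adjusted p = 0.0192 by limma). Its last 14 bases overlap mt-Nd5 on the other strand. Because the library kit does not mark strand, reads of mt-Nd6 cannot be told apart from antisense reads, there or in the rest of the gene.

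Complex III, cytochrome bc1, takes electrons from ubiquinol to cytochrome c and has a single subunit of mitochondrial origin. mt-Cytb (chrM:14145-15288), the cytochrome b subunit and the second gene by level, had 38919, 37139 and 38698 FPKM in the libraries labelled PKI, against 41086, 41969 and 42041 FPKM in those labelled WT. It fell by 8.27% with no overlap between groups (log2 difference −0.12, SE 0.03, adjusted p = 0.0204 by limma).

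Complex IV, cytochrome c oxidase, reduces oxygen to water, and all 3 of its subunits encoded in the mitochondrial genome fell. mt-Co1 (chrM:5328-6872), the catalytic subunit, was the most abundant member, with 73432, 71684 and 73089.9 FPKM in the libraries labelled PKI, against 85279.7, 86669.7 and 90411 FPKM in those labelled WT. It fell by 16.8% and had the smallest adjusted p of all members (log2 difference −0.27, SE 0.03, adjusted p = 0.00169 by limma). mt-Co2 (chrM:7013-7696), which receives electrons from cytochrome c, had 27742, 26821 and 27943 FPKM in the libraries labelled PKI, against 30784, 31064 and 30323 FPKM in those labelled WT. mt-Co3 (chrM:8607-9390), the third core subunit, had 26249.6, 25771 and 26562 FPKM in the libraries labelled PKI, against 29059.8, 30229 and 30923 FPKM in those labelled WT. Neither gene overlapped between groups, and both fell, by 0.16 on the log2 scale for mt-Co2 (adjusted p = 0.00862 by limma) and by 0.20 for mt-Co3 (adjusted p = 0.00609 by limma).

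ATP synthase has 2 subunits of mitochondrial origin, and neither passed the test. mt-Atp8 (chrM:7766-7969) and mt-Atp6 (chrM:7927-8607) are read from 1 shared mRNA whose coding regions overlap by 43 bases (chrM:7927-7969). mt-Atp6 encodes the membrane subunit of the proton channel, and mt-Atp8 a short subunit of the stalk region. The sequences below are shown because the 43 shared bases, in capitals, stand at the end of mt-Atp8, at the start of mt-Atp6, and at the start of Gm10925, a pseudogene on chromosome 1 (chr1:24613974-24614651, minus strand).
mt-Atp8, whole gene, 5′ to 3′: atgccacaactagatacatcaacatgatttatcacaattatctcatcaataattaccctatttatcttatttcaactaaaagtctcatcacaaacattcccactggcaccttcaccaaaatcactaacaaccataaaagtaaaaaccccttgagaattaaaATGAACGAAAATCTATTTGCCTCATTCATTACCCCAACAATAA
mt-Atp6, start of the gene, 5′ to 3′: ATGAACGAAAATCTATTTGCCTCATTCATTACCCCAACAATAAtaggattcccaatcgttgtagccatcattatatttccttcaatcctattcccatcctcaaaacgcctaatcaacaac
Gm10925, start of the gene, 5′ to 3′: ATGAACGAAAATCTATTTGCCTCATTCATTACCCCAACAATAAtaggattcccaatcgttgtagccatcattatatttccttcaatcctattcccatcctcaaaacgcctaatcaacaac

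mt-Atp8 had 30038, 30311 and 31262 FPKM in the libraries labelled PKI, against 32340.1, 32406 and 32511 FPKM in those labelled WT. The groups did not overlap, but the difference was small and missed the threshold (log2 difference −0.09, SE 0.03, adjusted p = 0.0528 by limma). mt-Atp6 had 32143, 30710.2 and 32091 FPKM in the libraries labelled PKI, against 34449.9, 8216 and 7966 FPKM in those labelled WT. WT replicate 1 lay above all PKI values, whereas WT replicates 2 and 3 were 4.19-fold and 4.32-fold below WT replicate 1. The log2 difference of 1.27 (95% interval 0.04 to 2.50, SE 0.52, adjusted p = 0.089 by limma) therefore rests on those 2 libraries. Without WT replicate 1, mt-Atp6 was called higher with a log2 difference of 1.97 (adjusted p = 1.59e-05 by limma), and without WT replicate 2 or 3 it was 0.93 or 0.91 and not called.

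The drop in WT replicates 2 and 3 was not seen in the entries around mt-Atp6 or in its copy. The ratio of mt-Atp6 to mt-Atp8 was 1.07, 1.01 and 1.03 in libraries labelled PKI, against 1.07, 0.254 and 0.245 in those labelled WT. Gm10925, which matches mt-Atp6 at 678 of 678 aligned bases, had 34751, 33683 and 34933 FPKM in the libraries labelled PKI, against 37864, 36683 and 36853 FPKM in those labelled WT. It fell in the libraries labelled PKI (log2 difference −0.11, SE 0.03, adjusted p = 0.0302 by limma), the direction of the other protein-coding members. Its level was 108% to 109.7% of mt-Atp6 in libraries labelled PKI and in WT replicate 1 it was 109.9%, against 447% and 463% in WT replicates 2 and 3. With each member summed with its copies, mt-Atp6 had a log2 difference of 0.33 (adjusted p = 0.163 by limma). No source used here gives how fragments were divided between the gene and the copy, and its part in the mt-Atp6 values was not tested.

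Copies of this kind exist for most protein-coding members. By sequence, 15 nuclear entries matched a protein-coding member at 90% identity or more over at least 80% of the shorter sequence. Together they held 22.6% of all FPKM in libraries labelled PKI and 24.3% in those labelled WT. The 7 of them above 1000 FPKM lie in a row on the minus strand of chromosome 1 (chr1:24611535-24616197). Of these 7, 6 fell and 0 rose, and Gm28438, the copy of mt-Nd3, just missed the threshold (adjusted p = 0.0514 by limma). The copies of mt-Co2, mt-Co3 and mt-Nd4l had 100% to 100.5% of their member's level in every library. Gm29216, a partial copy of mt-Co1, had 49.6% to 51.0% of it in libraries labelled PKI and 47.2% to 49.9% in those labelled WT. Of the 6 protein-coding members with no annotated copy above 1000 FPKM (mt-Nd1, mt-Nd2, mt-Nd5, mt-Nd6, mt-Cytb and mt-Atp8), 5 fell. Only annotated transcripts were searched, so copies without an annotated entry were not looked for. With each member summed with its copies, the same 15 members were called lower. Apart from Gm10925, the 7 copies stayed near a fixed percent of their member, so this sum could hardly change those calls. The copies that fell are likewise no separate support for the fall of the members. Cep295, a nuclear gene that holds a stretch like mt-Tl1 and mt-Tn, was not counted as a copy.

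**Figure D2:**
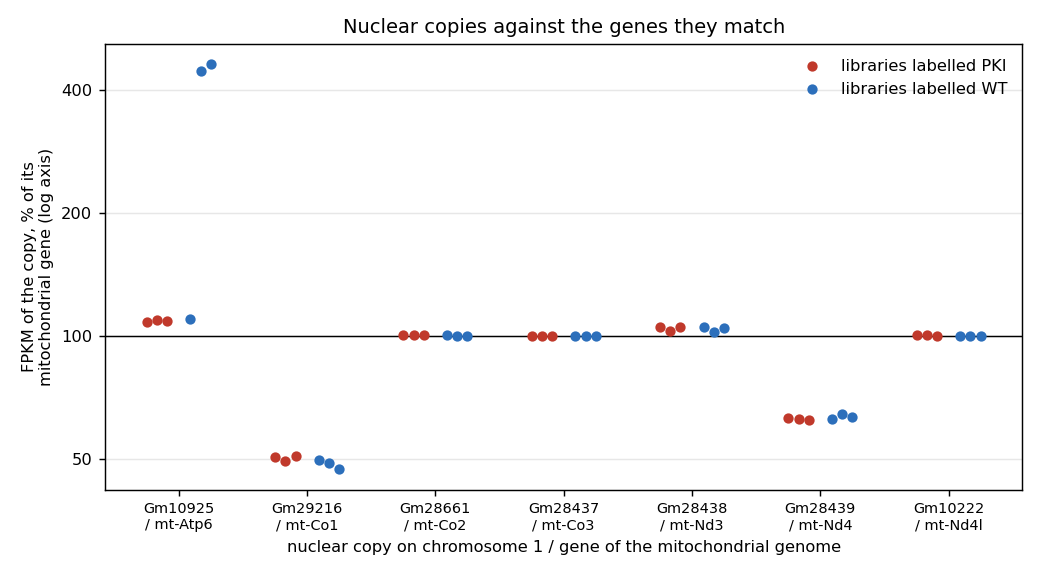
FPKM of each of the 7 chromosome 1 copies as a percent of its mitochondrial gene (log axis) in every library, red for libraries labelled PKI and blue for libraries labelled WT. Ratios lie close together across libraries except for Gm10925 over mt-Atp6, which reaches 447% and 463% in 2 WT libraries.

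The rRNAs form the core of the mitochondrial ribosome, which translates the 13 mRNAs, and neither passed the test. mt-Rnr1 (chrM:70-1024), of the small ribosomal subunit, had 1805, 2053 and 1902 FPKM in the libraries labelled PKI, against 1863, 2232 and 2035 FPKM in those labelled WT. mt-Rnr2 (chrM:1094-2675), of the large subunit, had 2428, 2655 and 2577 FPKM in the libraries labelled PKI, against 2699, 2767 and 2589.9 FPKM in those labelled WT. The groups overlapped for both, with a log2 difference of −0.09 for mt-Rnr1 (SE 0.08, adjusted p = 0.384 by limma) and −0.07 for mt-Rnr2 (SE 0.05, adjusted p = 0.259 by limma). The 95% interval was −0.27 to 0.10 for mt-Rnr1 and −0.19 to 0.04 for mt-Rnr2, so falls like those of many mRNAs lie within them. Both rRNAs were far below every mRNA in FPKM. That is their level in these libraries and not their amount in the tissue, since how well the kit captures each class of RNA was not tested. Together they came to 1.302 ± 0.0792 FPKM per 100 FPKM of the protein-coding members without mt-Atp6 in libraries labelled PKI, and 1.204 ± 0.0551 in those labelled WT (SD, n = 3 each). They took 0.623% ± 0.0394 of all FPKM in libraries labelled PKI and 0.627% ± 0.0385 in those labelled WT.

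**Figure D3:**
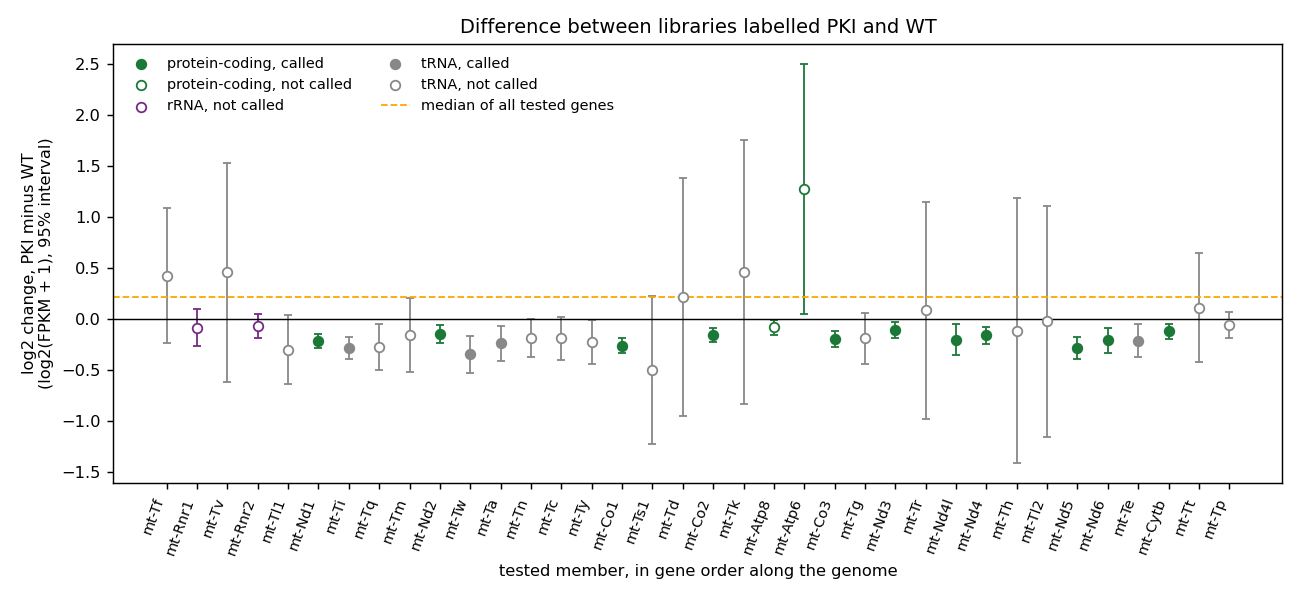
Log2 difference, PKI minus WT, on the log2(FPKM + 1) scale with its 95% interval for the 36 tested members in their order along the mitochondrial genome, filled where called and open where not. Of the 15 called members all lie below 0, the dashed line marks the median of all tested genes at 0.21, and mt-Atp6 and the weakly covered tRNAs have the widest intervals.

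The tRNAs carry amino acids to the mitochondrial ribosome, and all 22 lay below every protein-coding member in mean level. Their summed FPKM was 2.64% ± 0.0491 of the total in libraries labelled PKI and 2.92% ± 0.180 in those labelled WT (SD, n = 3 each). Reads from a free tRNA and from an uncut precursor that still holds it cannot be told apart in such a table. How well the library kit captures RNAs this short was not tested either, so their order is one of FPKM only. The sequences that follow have the anticodon in capitals. They are the tRNAs highest and lowest in FPKM, the leucine tRNA that ranked next to the highest, and the other serine tRNA. The last 2 are tRNAs that were low in replicate 2 of both groups.
mt-Te, glutamate, 5′ to 3′: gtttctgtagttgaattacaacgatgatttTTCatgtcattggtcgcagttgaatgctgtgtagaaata
mt-Tl1, leucine, 5′ to 3′: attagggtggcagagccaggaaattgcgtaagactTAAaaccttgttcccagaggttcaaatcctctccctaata
mt-Ts1, serine, 5′ to 3′: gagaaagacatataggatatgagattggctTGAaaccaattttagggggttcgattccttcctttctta
mt-Ts2, serine, 5′ to 3′: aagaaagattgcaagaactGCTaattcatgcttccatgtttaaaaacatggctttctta
mt-Tr, arginine, 5′ to 3′: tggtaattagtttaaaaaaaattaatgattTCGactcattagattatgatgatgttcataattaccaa
mt-Tk, lysine, 5′ to 3′: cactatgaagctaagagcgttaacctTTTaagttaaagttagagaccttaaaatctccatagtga
Of the 2 serine tRNAs, mt-Ts2 is 59 bases long and the shortest member.

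Of the 21 tested tRNAs, 4 fell and 0 rose, where 2.96% of all tested genes were called lower and 36.4% higher. mt-Te (chrM:14071-14139, minus strand), for glutamate, had 5795, 6309 and 6136 FPKM in the libraries labelled PKI, against 7323, 7515 and 6395 FPKM in those labelled WT. It fell by 14.1%, with all PKI values below the WT values (log2 difference −0.22, SE 0.07, adjusted p = 0.0411 by limma). mt-Ta (chrM:5018-5086, minus strand), for alanine, had 877, 996 and 879 FPKM in the libraries labelled PKI, against 1144, 998 and 1113 FPKM in those labelled WT. PKI replicate 2 and WT replicate 2 nearly met, yet the difference passed the test (log2 difference −0.24, SE 0.07, adjusted p = 0.038 by limma). mt-Ti (chrM:3706-3774), for isoleucine, had 739, 776 and 763 FPKM in the libraries labelled PKI, against 963, 900.2 and 924 FPKM in those labelled WT. It had the smallest standard error of the tRNAs and fell by 18.2% (log2 difference −0.29, SE 0.05, adjusted p = 0.00464 by limma). mt-Tw (chrM:4950-5016), for tryptophan, had 484, 474 and 514 FPKM in the libraries labelled PKI, against 682, 560.4 and 641 FPKM in those labelled WT. It fell by 0.35 on the log2 scale, more than any other called member (log2 difference −0.35, SE 0.08, adjusted p = 0.0144 by limma).

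mt-Ti and mt-Tw lie next to mRNAs that also fell, since mt-Ti shares 2 bases with the end of mt-Nd1 and mt-Tw shares 2 with the end of mt-Nd2. mt-Tq (chrM:3772-3842, minus strand), for glutamine, overlaps the end of mt-Ti by 3 bases on the opposite strand and had 389, 369.5 and 398 FPKM in the libraries labelled PKI, against 407, 475 and 530.01 FPKM in those labelled WT. It too showed no overlap between groups but just missed the threshold (log2 difference −0.28, SE 0.10, adjusted p = 0.0531 by limma). mt-Tl1 (chrM:2676-2750), for leucine, had 2141, 1805 and 2188 FPKM in the libraries labelled PKI, against 3001, 2033 and 2608 FPKM in those labelled WT. PKI replicates 1 and 3 exceeded WT replicate 2, so the groups overlapped (log2 difference −0.30, SE 0.14, adjusted p = 0.127 by limma).

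The block of minus-strand tRNAs between mt-Nd2 and mt-Co1 lay between 877 and 2537 FPKM, and of its genes mt-Ta alone passed the test. mt-Tn (chrM:5089-5159), for asparagine, had 1830.5, 2082 and 1818 FPKM in the libraries labelled PKI, against 2321, 1974 and 2241 FPKM in those labelled WT. mt-Tc (chrM:5192-5257), for cysteine, had 1935, 2178 and 1915 FPKM in the libraries labelled PKI, against 2537, 2036 and 2327 FPKM in those labelled WT. mt-Ty (chrM:5260-5326), for tyrosine, had 1495, 1741 and 1537 FPKM in the libraries labelled PKI, against 2065, 1655 and 1878 FPKM in those labelled WT. In each of the 3, PKI replicate 2 was the highest of its group and WT replicate 2 the lowest of its group, and the groups overlapped there. Their log2 differences were −0.19, −0.19 and −0.23 (adjusted p = 0.095, 0.124 and 0.0881 by limma). Without WT replicate 2 all 3 were called lower, as were mt-Tl1, mt-Th and mt-Tl2, while mt-Te was not, giving 9 tRNAs in place of 4. Over all tested genes, 227 of 9980 were called lower in that fit. mt-Tm (chrM:3845-3913), for methionine, had 1459.9, 1088 and 1396 FPKM in the libraries labelled PKI, against 1519, 1199.6 and 1701 FPKM in those labelled WT. mt-Tp (chrM:15356-15422, minus strand), for proline, had 685, 678 and 728 FPKM in the libraries labelled PKI, against 733, 757 and 694 FPKM in those labelled WT. Both overlapped between groups, with log2 differences of −0.16 for mt-Tm (adjusted p = 0.416 by limma) and −0.06 for mt-Tp (adjusted p = 0.367 by limma).

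The 11 tRNAs at a mean of 300 FPKM or more and the 10 tested tRNAs below it gave values of different precision. In the upper band all 11 log2 differences were negative, with a median of −0.23, SEs of 0.05 to 0.15, and 4 calls. In the lower band 6 of 10 were positive, with a median of 0.09 and SEs of 0.11 to 0.55, and none was called. Without WT replicate 2, 1 of all 21 tested tRNAs had a positive difference, against 6 with every library. This boundary was set with the values known and is a description. The library kit does not mark strand, so strand here is that of the gene, and reads from either strand count. By strand, 2 of 8 tested tRNAs on the minus strand fell, against 2.96% of all tested genes, with a median log2 difference of −0.22. On the plus strand 2 of 13 fell, with a median of −0.03. That plus-strand median changed with single libraries, to −0.30 with 5 calls without WT replicate 2, −0.14 without PKI replicate 3, 0.31 without WT replicate 1, 0.16 without WT replicate 3 and 0.02 without PKI replicate 1. The minus-strand median was −0.26 with 4 calls without WT replicate 2, and 0 minus-strand tRNAs were called without PKI replicate 1 or 3, and 1 without WT replicate 1 or 3.

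Several tRNAs below 300 FPKM varied widely within both groups. mt-Tr (chrM:9808-9875), for arginine, had 250.4, 111 and 260.3 FPKM in the libraries labelled PKI, against 253, 97.3 and 248 FPKM in those labelled WT. mt-Td (chrM:6942-7011), for aspartate, had 233, 106 and 258 FPKM in the libraries labelled PKI, against 258, 77.6 and 203 FPKM in those labelled WT. mt-Tk (chrM:7700-7764), for lysine, had 101, 44.04 and 106 FPKM in the libraries labelled PKI, against 94.00, 23.7 and 79.2 FPKM in those labelled WT. In all 3, replicate 2 was the lowest of both groups by a wide margin, and the groups overlapped. mt-Tv (chrM:1025-1093), for valine, had 53.4, 25.99 and 53.5 FPKM in the libraries labelled PKI, against 49.6, 14.9 and 37.7 FPKM in those labelled WT. mt-Tf (chrM:1-68), for phenylalanine, had 14.7, 7.68 and 15.5 FPKM in the libraries labelled PKI, against 11.6, 6.49 and 8.94 FPKM in those labelled WT. mt-Tt (chrM:15289-15355), for threonine, had 33.9, 27.03 and 40.7 FPKM in the libraries labelled PKI, against 40.1, 22.2 and 33.2 FPKM in those labelled WT. These 3 showed the same low replicate 2, so that 6 tRNAs lay under 0.75 of the mean of the other replicates in both groups. WT replicate 2 was the lowest of its group for 18 of 22 tRNAs and PKI replicate 2 for 12, whereas both rRNAs were highest in replicate 2 of both groups. The labels do not say what replicates of the same number share. None of these 6 passed the test, with adjusted p between 0.256 and 0.895 by limma.

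mt-Th (chrM:11546-11612), for histidine, had 79.96, 114 and 99.2 FPKM in the libraries labelled PKI, against 201, 38.6 and 148 FPKM in those labelled WT. mt-Tl2 (chrM:11671-11741), for leucine, had 69.4, 84.8 and 98.7 FPKM in the libraries labelled PKI, against 148, 35.5 and 116 FPKM in those labelled WT. Both genes, which flank mt-Ts2, were low in WT replicate 2 alone, and their other WT values lay above all PKI values. mt-Th had a log2 difference of −0.12 (SE 0.55, adjusted p = 0.873 by limma) over all libraries and −0.83 (adjusted p = 0.0238 by limma) without WT replicate 2. mt-Tl2 had −0.03 (SE 0.48, adjusted p = 0.968 by limma) over all libraries and −0.65 (adjusted p = 0.0378 by limma) without it. mt-Tg (chrM:9391-9458), for glycine, had 15.8, 18.02 and 18.7 FPKM in the libraries labelled PKI, against 21.9, 17.3 and 21.3 FPKM in those labelled WT. mt-Ts1 (chrM:6870-6938, minus strand), for serine, had 3.02, 2.44 and 3.17 FPKM in the libraries labelled PKI, against 3.33, 8.44 and 2.99 FPKM in those labelled WT. Neither passed the test (adjusted p = 0.18 for mt-Tg and 0.224 for mt-Ts1 by limma), and WT replicate 2 was 2.67-fold above the mean of the other WT libraries for mt-Ts1. By the implied depth, mt-Ts1 comes to about 3 to 12 estimated fragments per library and mt-Tf to about 9 to 21. The estimate may be wrong for genes this short. mt-Ts2 (chrM:11613-11671), for serine, was the member that failed the level filter, with 0.106, 0.184 and 0.124 FPKM in the libraries labelled PKI, against 0.158, 0.0212 and 0.109 FPKM in those labelled WT. Each of these comes to under 1 estimated fragment yet is above 0, which whole fragments over the gene's length cannot give. The estimate is therefore not a depth for mt-Ts2, which was not tested for a difference.

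**Figure D4:**
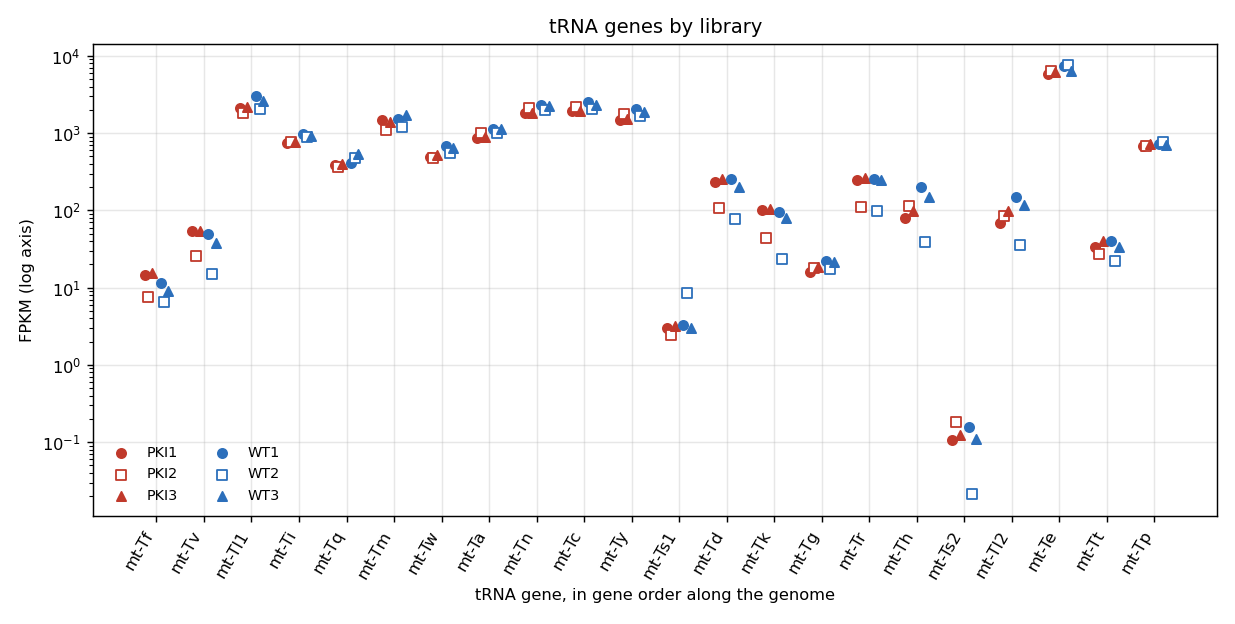
FPKM (log axis) of the 22 tRNA genes in their order along the genome, red for libraries labelled PKI and blue for libraries labelled WT, with circles, open squares and triangles for replicates 1, 2 and 3. The open squares lie lowest in both groups for mt-Tf, mt-Tv, mt-Td, mt-Tk, mt-Tr and mt-Tt, and levels span from mt-Te at the top to mt-Ts2 under 1 FPKM.

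The number of members called depended on the scaling. Scaling by the median of ratios over the 15910 genes detected in every library moved the median log2 difference of all tested genes to −0.02 from 0.21, and that of the members to −0.46 from −0.16. After it, 25 of 36 members fell and 0 rose, against 9.24% lower and 7.71% higher over all tested genes. Those 25 were 12 protein-coding genes, both rRNAs and 11 tRNAs. Scaling to the total of nuclear genes called the same 25 lower, where 6.09% of all tested genes were lower. The log2 differences of the 12 protein-coding genes other than mt-Atp6 ran from −0.29 to −0.09 as deposited and from −0.59 to −0.39 after median-of-ratios scaling.

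Scaling each library to the members' own total without mt-Atp6 centres the set and shows which members moved more or less than the rest. The same 12 protein-coding genes then ran from −0.10 to 0.11. On that scale mt-Co1 fell (log2 difference −0.07, adjusted p = 0.0435 by limma) and mt-Atp8 rose (log2 difference 0.11, adjusted p = 0.00996 by limma). mt-Atp6 was called higher on it too (log2 difference 1.46, adjusted p = 0.0388 by limma), with the dependence on WT replicates 2 and 3 described above. This scale called 69.5% of all tested genes, 68.3% higher and 1.26% lower. With mt-Atp6 left in the total, mt-Co1, mt-Ti and mt-Tw fell and mt-Atp6 alone rose, where 60.2% of all tested genes were called, 58.6% higher and 1.62% lower. mt-Co1 held 18.2% ± 0.139 of the members' FPKM in libraries labelled PKI and 20.1% ± 1.07 in those labelled WT (SD, n = 3 each), a total that includes mt-Atp6.

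The nuclear-encoded subunits of the same complexes were set beside them from a list of 80 genes made by gene symbol. Such a list can hold a gene that is not a subunit of the complex it is listed under. Of the 80 genes, 77 were tested. Of these 8 rose and 5 fell, with a median log2 difference of 0.03. For the mitochondrial subunits 0 rose and 11 of 13 fell, with a median of −0.16. Over all tested genes, 36.4% were called higher and 2.96% lower, a background that is not independent of the members' share. After median-of-ratios scaling, 0 nuclear subunits rose and 30 fell, with a median of −0.26, against 12 of 13 fallen and −0.46 for the mitochondrial ones. That scaling called 7.71% of all tested genes higher and 9.24% lower. The difference between the lists was not tested. In complex I, 2 of 37 nuclear subunits rose and 1 fell: Ndufb3 and Ndufb6, accessory membrane subunits, rose (log2 differences 0.25 and 0.29, adjusted p = 0.0152 and 0.0282 by limma). Ndufs1, a core iron-sulphur subunit, fell (log2 difference −0.23, SE 0.07, adjusted p = 0.0454 by limma).

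In complex III 1 of 9 rose and 1 fell. Uqcrc1, a core protein, had 119.97, 109 and 119 FPKM in the libraries labelled PKI, against 133, 146 and 148 FPKM in those labelled WT, and fell (log2 difference −0.29, SE 0.07, adjusted p = 0.0148 by limma). Uqcrh, the hinge protein, rose (log2 difference 0.19, SE 0.05, adjusted p = 0.0239 by limma), and Uqcr10 was not called (log2 difference 0.18, SE 0.06, adjusted p = 0.0582 by limma). In complex IV 4 of 15 rose and 1 fell, and the 3 genes with the smallest p were tissue isoforms. Cox8a and Cox6a1, the isoforms made in most tissues, rose by 0.52 and 0.59 on the log2 scale (adjusted p = 0.00724 and 0.013 by limma). Cox7a1, the isoform of heart and skeletal muscle, fell (log2 difference −0.27, SE 0.07, adjusted p = 0.0275 by limma). Cox8b, Cox6a2 and Cox7a2, of the same families and added after their values were seen, were not called. Their log2 differences were 0.007, −0.16 and 0.07 (adjusted p = 0.967, 0.281 and 0.418 by limma). Cox6a2 fell after median-of-ratios scaling (log2 difference −0.46, adjusted p = 0.043 by limma). Cox6b1 and Cox7a2l, both listed there by symbol alone, were the other 2 that rose. In ATP synthase 1 of 16 rose and 2 fell. Atp5a1 and Atp5b, the alpha and beta subunits of the catalytic head, fell by 0.14 and 0.18 on the log2 scale (adjusted p = 0.0288 and 0.0172 by limma). Atp5mpl, a small membrane subunit, rose (log2 difference 0.25, SE 0.06, adjusted p = 0.0147 by limma). After median-of-ratios scaling none of the risen subunits was called, and Uqcrc1, Ndufs1, Cox7a1, Atp5a1 and Atp5b remained called lower.

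**Figure D5:**
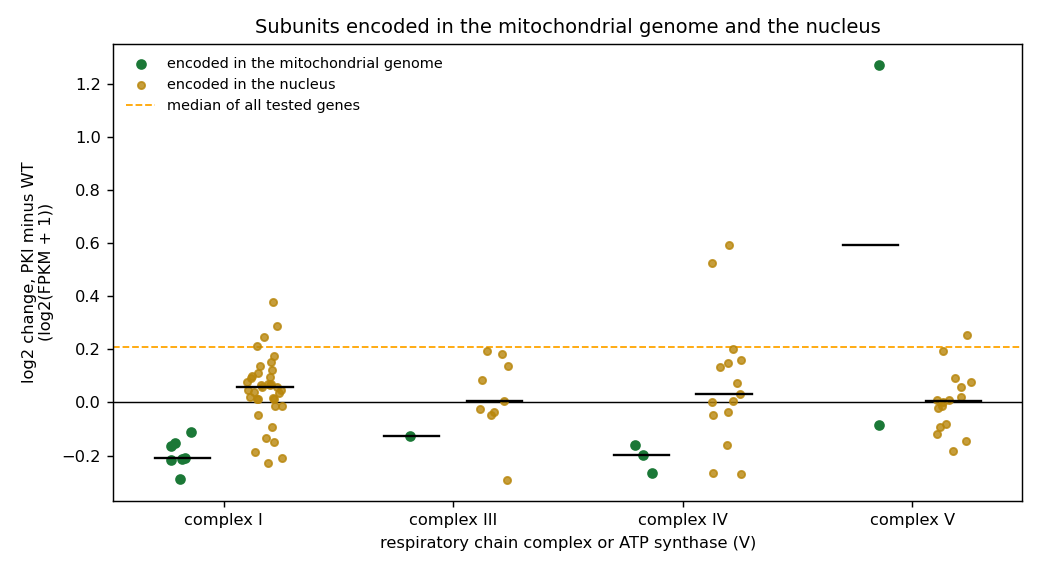
Log2 difference, PKI minus WT, on the log2(FPKM + 1) scale for subunits encoded in the mitochondrial genome (green) and in the nucleus (gold) in complexes I, III, IV and V, 1 point per gene with a bar at the median. Green points lie below 0 in complexes I, III and IV, gold points lie on both sides, and the green point at 1.27 in complex V is mt-Atp6.

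The machinery that copies, transcribes, cuts, modifies and degrades mitochondrial RNA was described from a list of 48 genes, of which 43 were tested. Of these 5 rose and 1 fell, with a median log2 difference of 0.14, and after median-of-ratios scaling 0 rose and 8 fell. Over all tested genes 36.4% were called higher and 2.96% lower, and 7.71% and 9.24% after that scaling. Tfb1m, which methylates the small-subunit rRNA, had 4.27, 3.56 and 3.45 FPKM in the libraries labelled PKI, against 5.03, 4.92 and 4.64 FPKM in those labelled WT, and fell (log2 difference −0.30, SE 0.08, adjusted p = 0.0282 by limma). Pde12, which removes poly(A) tails from mitochondrial RNA, and Rexo2, which degrades very short RNA fragments, rose by 0.43 each on the log2 scale (adjusted p = 0.00999 and 0.011 by limma). Of the tRNA-modifying enzymes Pus1, Gtpbp3 and Mto1 rose, by 0.28, 0.25 and 0.20 (adjusted p = 0.0188, 0.0386 and 0.0489 by limma). Tfam, the packaging and transcription factor of the mitochondrial genome, and Polrmt, its RNA polymerase, are given for their roles and were chosen after their values were seen. Tfam had 5.59, 5.95 and 5.93 FPKM in the libraries labelled PKI, against 6.55, 5.71 and 6.08 FPKM in those labelled WT. Polrmt had 3.37, 2.95 and 2.64 FPKM in the libraries labelled PKI, against 2.97, 2.44 and 2.59 FPKM in those labelled WT. The groups overlapped for both and neither was called (adjusted p = 0.527 and 0.342 by limma). After median-of-ratios scaling Tfam fell (log2 difference −0.31, adjusted p = 0.0219 by limma).

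Markers of the cell types in the ventricle moved between the groups as well. Their counts stand beside 36.4% higher and 2.96% lower over all tested genes, and 7.71% and 9.24% after median-of-ratios scaling. Of 9 cardiomyocyte markers, 2 rose and 3 fell. Their summed FPKM was 10842 to 11805 in libraries labelled PKI and 10487 to 11244 in those labelled WT, which overlap. Actc1, the highest of the 9, rose. It had 4280 to 4789 FPKM in libraries labelled PKI and 3386 to 3860 FPKM in those labelled WT. The sum leans on Actc1, so its overlap does not show that the other markers were unchanged. After median-of-ratios scaling 0 of these 9 rose and 7 fell (Myh6, Myl2, Myl3, Tnnt2, Tnni3, Ryr2 and Pln). Fibroblast markers rose in 7 of 8 cases, with sums of 319 to 390.2 FPKM in libraries labelled PKI and 110.3 to 164 FPKM in those labelled WT. All 7 macrophage markers rose, with sums of 198 to 216 FPKM in libraries labelled PKI and 64.6 to 102 FPKM in those labelled WT. Endothelial markers rose in 2 of 5 cases, with sums of 67.7 to 74.0 FPKM in libraries labelled PKI and 61.7 to 66.6 FPKM in those labelled WT. After median-of-ratios scaling neither of those 2, Pecam1 and Tek, was called, and Kdr fell (log2 difference −0.34, adjusted p = 0.0313 by limma). All 5 red blood cell markers fell, with sums of 274 to 338 FPKM in libraries labelled PKI and 379.9 to 538 FPKM in those labelled WT. Under the same scaling 7 fibroblast and 6 macrophage markers rose and all 5 red blood cell markers fell. No marker was at 0 in any library. The part of these cell types in the fall of the mitochondrial transcripts was not tested.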

How the data were processed

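RNA was extracted with Trizol from frozen hearts and 1 µg of total RNA went into Illumina TruSeq RNA libraries, per the labels' protocols. The deposited values are FPKM per gene and library, made by the authors. Bowtie 0.12.2, CASAVA and build mm9 are named in the submitters' processing notes, with no role or order. No source used here names the program behind the FPKM, the annotation, or how fragments that match several genes were treated. Both deposited gene tables held the same values for all 52550 genes, and a deposited tally of genes by FPKM range was left aside. Depth is known only as the estimate given above, so no counting intervals were computed.

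Members were the genes whose trimmed symbol starts with mt-. Samples were grouped by title as PKI (3) or WT (3), with no covariate. limma 3.58.1 in R 4.3.3 was run on log2(FPKM + 1) with a mean-variance trend over the 9907 genes whose mean reached 1 FPKM, and p-values were adjusted by Benjamini-Hochberg over all of them. A fold change on this scale understates the change of low genes. The fit was tested on simulated data. Positions and sequences were taken by gene identifier from GENCODE M21 (GRCm38), with no conversion between builds. Nuclear copies were found with blastn 2.17.0 among the annotated transcripts of GENCODE M21, not in the whole genome sequence. Alternatives were other scalings, pseudocounts of 0.1 and 0.5, other level filters, no trend, library weights, a replicate block, leaving out each library, and summing members with copies. Scaling by median of ratios used 15910 genes.

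The members and lists were chosen with earlier results of these data known. The genes named were all protein-coding and rRNA members, all tRNAs, their nuclear copies, Ppargc1a, and the 3 genes with the smallest p of the machinery list and of each complex, with exceptions marked or named to account for a count.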

Additional observations from a re-analysis of the deposited data

How the results depend on the processing

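Call counts moved with scaling and with the variance model more than directions did. The number of members called lower was 15 as deposited. It was 25 after median-of-ratios or nuclear-total scaling, 3 after scaling to the members' total, 1 after scaling to that total without mt-Atp6 (chosen after seeing the data), 6 after quantile normalisation, 2 with no level filter, 6 with no variance trend, and 9 to 16 with 1 library left out (10, 9 and 10 without PKI replicate 1, PKI replicate 3 and WT replicate 3). The protein-coding members called lower were 11, against 1 under either members' total, 2 under quantile normalisation, 0 with no filter, 4 with no trend and 7 to 10 with 1 library left out (7 without PKI replicate 3, WT replicate 2 or WT replicate 3). The tRNAs called lower were 4, against 11 under both outside scalings, 2 and 0 under the members' totals with and without mt-Atp6, 2 with no filter, 2 with no trend and 2 to 9 with 1 library left out (2 without PKI replicate 1 or 3, 9 without WT replicate 2). Both rRNAs (2) were called under median-of-ratios and nuclear-total scaling. With mt-Atp6 as the gene, 1 member was called higher under the members' total, under library weights and without WT replicate 1 (0 to 1 over the libraries left out, with mt-Tf as the 1 without PKI replicate 2), and 2, with mt-Atp8, under the total without mt-Atp6. In all fits run except quantile normalisation and those scaled within the members, the 12 protein-coding genes other than mt-Atp6 kept negative differences.

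Over all tested genes, 3902 were called, against 1673, 1591, 5980, 6911 and 1515 under the scalings in the order above, 1925 at a minimum mean of 5 FPKM, and 2372 to 3439 with 1 library left out (2372 and 2429 without WT and PKI replicate 3). Of the machinery list 6 were called, against 3 under the nuclear total, 21 and 27 under the members' totals, 3 with no filter, 1 at the higher minimum and 3 to 5 with 1 library left out (3 without PKI replicate 1 or 3 or WT replicate 2 or 3, 4 without PKI replicate 2). Of the nuclear subunits 13 were called, against 30, 25 and 50 under median-of-ratios scaling and the members' totals, 7 with no filter and 3 to 13 with 1 library left out (3 without PKI replicate 3, 6 to 8 without PKI replicate 1 or WT replicate 2 or 3). Ppargc1a differed by −0.16, and by −0.44, −0.36 and −0.42, now called, under median-of-ratios, nuclear-total and quantile scaling, and by 0.0146 under the members' total without mt-Atp6. With the nuclear copies taken out of the total, protein-coding members held 67.5% in libraries labelled PKI and 71.6% in those labelled WT, rRNAs 0.805% under the PKI and 0.828% under the WT label, and tRNAs 3.42% under the PKI and 3.86% under the WT label. The cause of each of these moves was not tested.

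With the replicate number as a block, 12 members were called lower (9 protein-coding, 3 tRNAs), 11 of them among the 15, with mt-Ta, mt-Nd3, mt-Te and mt-Cytb lost and mt-Tl1 gained, and nuclear subunits called fell to 5. The numbers did not pair the libraries: same-numbered libraries' deviations correlated at −0.10, 0.0012 and 0.05 over 9907 genes, although 9 of 22 tRNAs were lowest in replicate 2 of both groups.

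Some differences, called ones included, turned round or went to 0 under other scalings. Under the members' total they were 0.042 for mt-Rnr1, 0.057 for mt-Rnr2, 0.044 for mt-Atp8, 0.019 for mt-Nd3, 0.0096 for mt-Th, 0.10 for mt-Tl2, 0.0053 for mt-Cytb and 0.067 for mt-Tp. Under that total without mt-Atp6 they were 0.10 for mt-Rnr1, 0.12 for mt-Rnr2, 0.032 for mt-Tm, 0.041 for mt-Nd2, 0.0039 for mt-Tn, 0.0016 for mt-Tc, 0.033 for mt-Co2, 0.11 for mt-Atp8, 0.082 for mt-Nd3, 0.029 for mt-Nd4, 0.071 for mt-Th, 0.16 for mt-Tl2, 0.068 for mt-Cytb and 0.13 for mt-Tp. Under quantile normalisation they were 0 for mt-Rnr2, 0 for mt-Co1, 0.011 for mt-Co2, 0.0017 for mt-Atp8, −0.036 for mt-Tr, 0.066 for mt-Nd4l, 0.046 for mt-Cytb and −0.13 for mt-Tt. That method gives each rank the same value in every library, so a gene that keeps its rank gets 0 whatever its change in level. mt-Co1 was the highest member in every library. Calls lost under this method among the top-ranked members are therefore no test of their fall. Median-of-ratios scaling gave −0.082 for mt-Td, −0.22 for mt-Tr and −0.18 for mt-Tt. Nuclear-total scaling gave −0.13 for mt-Tr and −0.10 for mt-Tt. Library weights gave 0.021 for mt-Tl2. With 1 library left out the range was −0.30 to 0.62 for mt-Td, −0.83 to 0.35 for mt-Th, −0.15 to 0.87 for mt-Tk, −0.65 to 0.37 for mt-Tl2, −0.37 to 0.48 for mt-Tr, −0.13 to 0.29 for mt-Tt and −0.038 to 0.80 for mt-Tv. The tested tRNAs lowest in level, mt-Ts1 and mt-Tf, come to about 3 to 12 and 9 to 21 estimated fragments per library. The estimate may be wrong for genes this short.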
